A study of Mus musculus with 6 samples.

Results

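A set of 8 genes widely used to mark pericytes was followed in RNA of primary mouse chondrocytes labelled as Nf2-knockout and of their controls. They were taken from the deposited expression table by symbol, and all 8 of them (Rgs5, Rgs4, Cspg4, Mcam, Notch3, Abcc9, Kcnj8 and Higd1b) were found among its 55401 genes. The set holds markers of mural cells, the cells that wrap small blood vessels, and leaves out genes of the smooth muscle contractile apparatus. Poly(A) RNA was sequenced from 3 Nf2-knockout and 3 control libraries of cultured chondrocytes from cartilage tissue, described by the series as put through differentiation. In both groups Nf2 carries the floxed allele (Nf2f/f), and the Nf2-knockout group is described as its knockout. Nf2 encodes merlin, a membrane-linked protein upstream of the Hippo kinases. Under treatment, the Nf2-knockout libraries are labelled as TCF21 overexpressing, which their titles do not mention, and the others as control. All 6 library names carry D7, with cKO in the Nf2-knockout group and CTL in the control group. No source used here gives the route of deletion, the strain, the age or sex of the animals, or whether replicates came from separate animals or cultures. The p-values therefore measure the spread among these 6 libraries alone, and that spread may be technical.

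Pericytes sit within the basement membrane of capillaries and small vessels, where they regulate tone, stability and permeability of the vessel. No gene is exclusive to them, and each marker has other sources: Cspg4 is also carried by oligodendrocyte progenitors and developing cartilage, Mcam by endothelial cells, and several members by smooth muscle. The set spans regulators of G protein signalling (Rgs5, Rgs4), surface proteins that bind matrix and other cells (Cspg4, Mcam), a Notch receptor (Notch3), the subunits of a potassium channel gated by ATP (Abcc9, Kcnj8) and a mitochondrial protein (Higd1b).

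Library totals ran from 50906043 to 63748798 counts in the Nf2-knockout libraries and from 55516143 to 61103617 in the controls. Nf2 had 4592, 6351 and 6503 counts in Nf2-knockout replicates 1 to 3, against 7448, 7153 and 6979 in control replicates 1 to 3. The log2 fold change of Nf2 was −0.41 (SE 0.0866, adjusted p = 0.0305), a call lost when any 1 of the 6 libraries was left out. The table does not say which exons the counts come from, so counts outside the deleted part cannot be told apart from remaining transcript. Tcf21 counts were 0, 2 and 0 across the Nf2-knockout replicates and 0 in each control. Of 14 chondrocyte markers, all passed the filter on low counts. They summed to between 1039.6 and 1974.3 counts scaled to library size (CPM, TMM-scaled) in Nf2-knockout and between 916 and 1366.9 CPM in control libraries. Fibroblast markers summed to between 8735.8 and 11042.6 CPM in Nf2-knockout and between 12602.3 and 15949.8 CPM in control libraries, of which Col1a1 alone averaged 2943.3 and 2930.9 CPM.

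Rgs5 and Cspg4 rose in Nf2-knockout chondrocytes, about 4-fold and 2-fold, and Abcc9 fell about 6-fold. With 1 library left out, the calls of Rgs5 and Cspg4 were kept in 6 of 6 fits and that of Abcc9 in 2 of 6. Rgs4, Notch3, Mcam and Kcnj8 did not pass the test, and Higd1b had no count. Of the 8 members 7 passed the filter on low counts, and of these 2 rose and 1 fell. Over all 18218 genes tested, 9.29% changed, with 4.11% higher and 5.18% lower. The groups did not overlap in CPM for 4 of the 7 members tested (Rgs5, Cspg4, Mcam and Abcc9), against 32.9% of all genes tested. The median log2 fold change of the 7 tested members was 1.03, the value of Mcam, against −0.01 over all genes tested. The members were chosen with earlier results of these data known, so this median describes them only. Because RNA was taken from whole cultures, more or fewer cells of a type and more or less RNA per cell cannot be told apart.

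**Figure D1:**
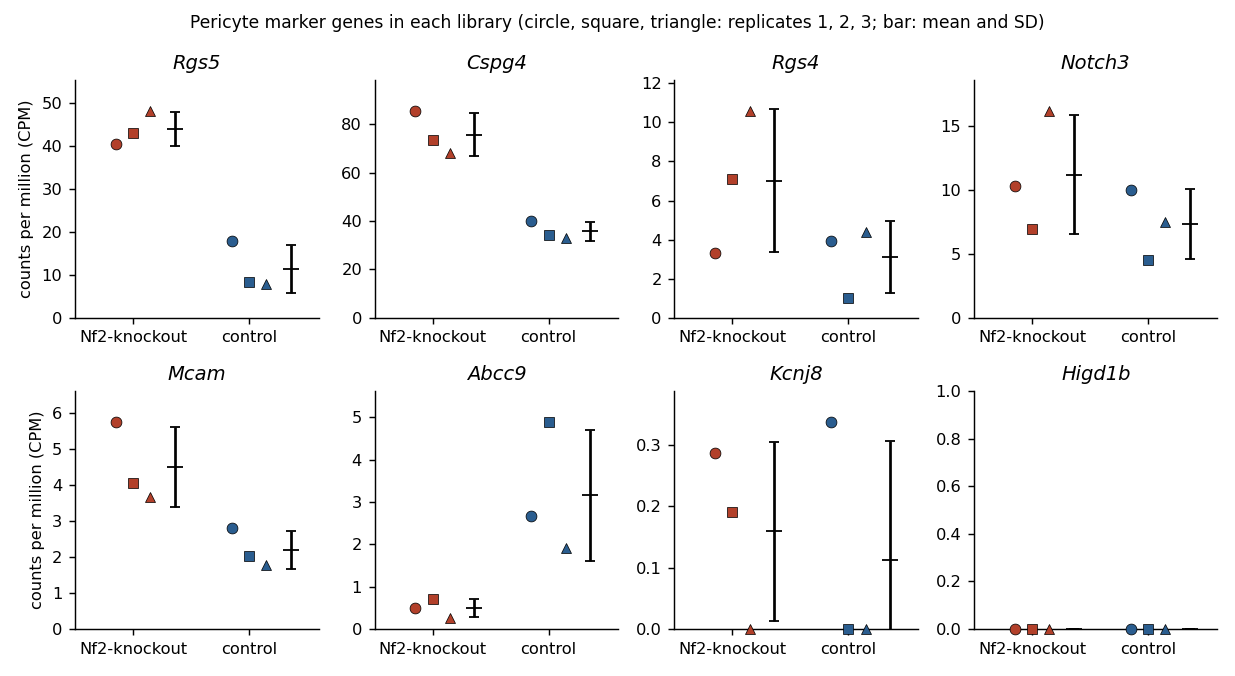
CPM of each pericyte marker gene in each library, with Nf2-knockout libraries on the left of each panel and controls on the right (symbols mark replicates 1 to 3, bars the mean and SD of 3 libraries, cut at 0). Rgs5 lay at 40.6 CPM or above in Nf2-knockout and at 17.8 CPM or below in control libraries, whereas Rgs4, Notch3 and Kcnj8 overlapped between the groups.

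Rgs5, a regulator of G protein signalling that speeds the switching off of G protein alpha subunits and is among the most used pericyte markers, showed the largest rise. Its gene lies on chromosome 1 (169655501 to 169695813, plus strand, GRCm38, ENSMUSG00000026678). It had 40.6, 43.1 and 48.3 CPM in Nf2-knockout replicates 1 to 3, against 17.8, 8.29 and 7.95 CPM in control replicates 1 to 3. The Nf2-knockout libraries lay close together, with a coefficient of variation of 8.93%, and the controls did not, with 49.2%, because control replicate 1 held about 2-fold the level of the other controls (highest over lowest 2.24). The mean was 44.0 ± 3.93 CPM in Nf2-knockout libraries, against 11.3 ± 5.58 CPM in controls (SD, n = 3 each), a ratio of 3.88. The log2 fold change was 1.96 (SE 0.317, adjusted p = 0.0135). Leaving out any 1 library kept the call (1.75 to 2.44, adjusted p from 0.00684 to 0.0495), with the highest value without control replicate 1.

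Rgs4, a sister gene of the same protein family, lies next to Rgs5 on chromosome 1 (169741477 to 169747642, minus strand), 45.7 kb away with no other gene of the table between them. The genes point towards each other. Rgs4 had 3.29, 7.11 and 10.6 CPM in Nf2-knockout replicates 1 to 3, against 3.93, 1.00 and 4.41 CPM in control replicates 1 to 3. Its groups overlapped, since Nf2-knockout replicate 1 lay below control replicates 1 and 3. The log2 fold change of 1.17 did not pass (SE 0.605, adjusted p = 0.29), with coefficients of variation of 52.3% in Nf2-knockout and 59.3% in control libraries. The medians of this coefficient over all genes tested were 14.8% and 16.6%.

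The surface proteins came next. Cspg4 encodes the NG2 proteoglycan, a transmembrane core protein that binds collagen VI and presents growth factors (chromosome 9, 56865033 to 56899870, plus strand). It had 85.6, 73.6 and 68.0 CPM in Nf2-knockout replicates 1 to 3, against 40.1, 34.3 and 32.8 CPM in control replicates 1 to 3. Every Nf2-knockout library lay above every control, and the spread was small, with coefficients of variation of 11.9% and 10.8%. The mean was 75.7 ± 9.01 CPM in Nf2-knockout libraries, against 35.7 ± 3.87 CPM in controls (SD, n = 3 each), and the log2 fold change was 1.08 (SE 0.126, adjusted p = 0.00541). The call was kept in each fit without 1 library (1.01 to 1.17).

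Mcam encodes CD146, an adhesion molecule of the immunoglobulin superfamily (chromosome 9, 44134469 to 44142727, plus strand). It had 5.76, 4.07 and 3.68 CPM in Nf2-knockout replicates 1 to 3, against 2.80, 2.02 and 1.79 CPM in control replicates 1 to 3. The groups did not overlap and the ratio of means was 2.05, close to the 2.12 of Cspg4, but the log2 fold change of 1.03 did not pass (SE 0.282, adjusted p = 0.0685). With DESeq2 it passed (1.05, adjusted p = 0.0155), where 12.8% of all genes with an adjusted p were called. The first bases of Mcam overlap an antisense gene, Gm10687, with at most 15 counts in a library.

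Notch3, the Notch receptor of mural cells that keeps smooth muscle and pericytes of vessels intact, lies on chromosome 17 (32120820 to 32166852, minus strand). It had 10.3, 6.95 and 16.2 CPM in Nf2-knockout replicates 1 to 3, against 9.98, 4.52 and 7.49 CPM in control replicates 1 to 3. The groups overlapped and the log2 fold change of 0.61 did not pass (SE 0.38, adjusted p = 0.383). An annotated gene on the other strand, Gm17276, overlaps Notch3 with up to 150 counts in a library, and no source used here says whether counting used strand. Of 18 tested genes among 24 ligands, other receptors, mediators and targets of Notch, 1 rose and 0 fell, a share of 5.56% against 9.29% of all genes (median log2 fold change −0.02). The gene that rose was Hes1, a transcriptional repressor induced by Notch among other signals, at 27.5 ± 4.29 CPM in Nf2-knockout libraries, against 15.9 ± 2.94 CPM in controls (log2 fold change 0.79, adjusted p = 0.0377). Its call was kept in 2 of 6 fits and lost in the other fits, which left out Nf2-knockout replicate 1, Nf2-knockout replicate 3, control replicate 2 or control replicate 3 and in which 0 of the list passed.

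Abcc9 and Kcnj8 encode the sulfonylurea receptor SUR2 and the pore Kir6.1, which join in the potassium channel gated by ATP that sets the membrane potential of vascular mural cells. Their genes are neighbours on chromosome 6 (Abcc9 142587862 to 142702315, Kcnj8 142564837 to 142571614, both on the minus strand), 16.2 kb apart with no other gene of the table between them. Abcc9 had 26, 45 and 18 counts in Nf2-knockout replicates 1 to 3, against 158, 264 and 109 counts in control replicates 1 to 3. Every Nf2-knockout library lay below every control. The mean was 0.493 ± 0.222 CPM in Nf2-knockout libraries, against 3.16 ± 1.55 CPM in controls (SD, n = 3 each), and the log2 fold change was −2.67 (SE 0.51, adjusted p = 0.0224). The direction was kept in every fit that left out 1 library (−3.04 to −2.21), and the call in 2 of the 6. Leaving out Nf2-knockout replicate 1 or 3 gave adjusted p-values of 0.0845 and 0.065, and leaving out control replicate 1 or 2 gave 0.0525 and 0.0696. On the log2(FPKM + 0.1) scale, where FPKM is the authors' value per transcript length and library size, the fold change was −1.42 and did not pass (limma, adjusted p = 0.0579).

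Kcnj8 was near the limit of detection, with 15, 12 and 0 counts in Nf2-knockout replicates 1 to 3, against 20, 0 and 0 counts in control replicates 1 to 3. A library without counts was found in both groups, and the log2 fold change of 0.46 had an SE of 1.79 (adjusted p = 0.909). A change in Kcnj8 was not detectable at this depth. Among 15 genes of other inward rectifier potassium channels and the second sulfonylurea receptor, 4 were tested, 0 rose and 1 fell (25% against 9.29% of all genes). It was Kcnj2, the pore Kir2.1, with 1.59, 1.76 and 1.69 CPM in Nf2-knockout replicates 1 to 3, against 3.96, 5.86 and 5.53 CPM in control replicates 1 to 3 (log2 fold change −1.61, SE 0.234, adjusted p = 0.0101, kept in 6 of 6 fits). Without Nf2-knockout replicate 2, Kcnj4 passed as well, as a rise. Kcnj11, the other pore of such ATP-gated channels, averaged 0.129 ± 0.0573 CPM in Nf2-knockout libraries, against 0.344 ± 0.165 CPM in controls (adjusted p = 0.293).

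Higd1b, a mitochondrial protein of the HIG1 domain family found in pericytes (chromosome 11, 102835849 to 102838040, plus strand), had 0 counts in all 6 libraries and was not tested. With a floor of 3 counts over a group, its level was at most 0.017 CPM in either group, for counting error only. Its paralog Higd1a, which acts in mitochondria more widely, averaged 105 ± 33.5 CPM in Nf2-knockout libraries, against 96.1 ± 12.6 CPM in controls and did not pass (adjusted p = 0.792).

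**Figure D2:**
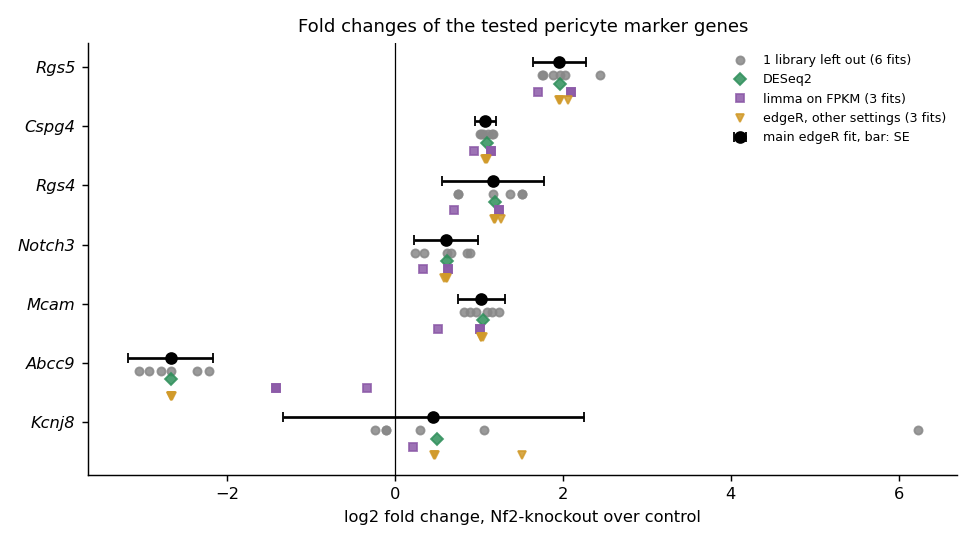
Log2 fold changes (Nf2-knockout over control) of the 7 tested pericyte marker genes in the main edgeR fit with SE, and the same under each alternative. Rgs5 and Cspg4 stayed at or above 0.94 in each fit and Abcc9 stayed below 0, whereas Kcnj8 ran from −0.24 to 6.23, the highest value being the fit without control replicate 1, which leaves controls with no count.

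The regions just upstream of the 3 genes that passed are shown because merlin acts upstream of YAP, whose DNA-binding partners are the TEAD factors, and because Notch acts through RBPJ. RefSeq promoter windows (GRCm38.p6, 250 bases before to 50 after the start) were found for 7 of the 8 members. Capitals mark the letters GGAATG, a core of TEAD sites, and TGGGAA, a core of RBPJ sites, on either strand.
Rgs5 (chr1:169655251-169655550, plus strand): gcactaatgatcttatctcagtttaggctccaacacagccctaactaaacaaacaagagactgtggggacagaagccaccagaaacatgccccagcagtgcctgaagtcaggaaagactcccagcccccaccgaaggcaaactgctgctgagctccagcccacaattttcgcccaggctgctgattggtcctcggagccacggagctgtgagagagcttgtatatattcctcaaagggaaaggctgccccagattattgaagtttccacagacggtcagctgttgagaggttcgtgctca
Cspg4 (chr9:56864854-56865153, plus strand): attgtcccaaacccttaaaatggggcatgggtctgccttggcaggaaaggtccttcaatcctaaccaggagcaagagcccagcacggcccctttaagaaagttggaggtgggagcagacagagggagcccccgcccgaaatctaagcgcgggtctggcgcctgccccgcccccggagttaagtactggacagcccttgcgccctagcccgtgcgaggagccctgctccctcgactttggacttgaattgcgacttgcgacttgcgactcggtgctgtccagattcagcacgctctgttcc
Abcc9 (chr6:142702225-142702524, minus strand): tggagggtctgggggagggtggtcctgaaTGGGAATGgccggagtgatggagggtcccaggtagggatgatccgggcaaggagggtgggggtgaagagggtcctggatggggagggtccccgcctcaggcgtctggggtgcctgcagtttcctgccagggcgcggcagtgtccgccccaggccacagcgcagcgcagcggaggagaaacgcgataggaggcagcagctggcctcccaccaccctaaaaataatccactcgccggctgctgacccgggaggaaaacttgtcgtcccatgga
Abcc9 held both letter groups, at −219 to −214 (GGAATG) and −221 to −216 (TGGGAA) from the start, and they overlap in 4 bases. Neither was in the windows of Rgs5 and Cspg4. Of the 7 windows, Abcc9 alone held GGAATG, and Abcc9 and Kcnj8 held TGGGAA. Among all 32851 RefSeq windows of this length 14.7% held GGAATG and 25.6% held TGGGAA. The CArG box, the site of serum response factor, was in 1.63% of all windows and in 0 of the 7. The window of Rgs5 had 52.3% G and C, near the median of all windows (52.7%), and that of Abcc9 had 65.7%.

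Levels between genes were compared in FPKM. In Nf2-knockout libraries the order by mean was Rgs5 (9.02 ± 0.889 FPKM), Cspg4 (5.91 ± 0.662), Rgs4 (2.11 ± 1.12), Notch3 (1.29 ± 0.552), Mcam (1.25 ± 0.304), Kcnj8 (0.056 ± 0.052) and Abcc9 (0.0535 ± 0.0246; SD, n = 3 each). The libraries of Rgs5 lay above those of Cspg4, and those of Cspg4 above Rgs4, whereas Rgs4, Notch3 and Mcam overlapped each with the next, as did Kcnj8 and Abcc9. In control libraries the order was Cspg4 (2.60 ± 0.295 FPKM), Rgs5 (2.17 ± 1.08), Rgs4 (0.871 ± 0.516), Notch3 (0.785 ± 0.296), Mcam (0.568 ± 0.139), Abcc9 (0.326 ± 0.162) and Kcnj8 (0.0376 ± 0.065). There Cspg4 and Rgs5 overlapped, Rgs5 lay above Rgs4, and each next gene down to Abcc9 overlapped with its neighbour. The ratio of Rgs5 to Cspg4 in FPKM was 1.24, 1.54 and 1.87 in Nf2-knockout replicates 1 to 3, against 1.16, 0.634 and 0.636 in control replicates 1 to 3. Rgs5 was the higher gene in every Nf2-knockout library and in control replicate 1, and Cspg4 in control replicates 2 and 3.

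**Figure D3:**
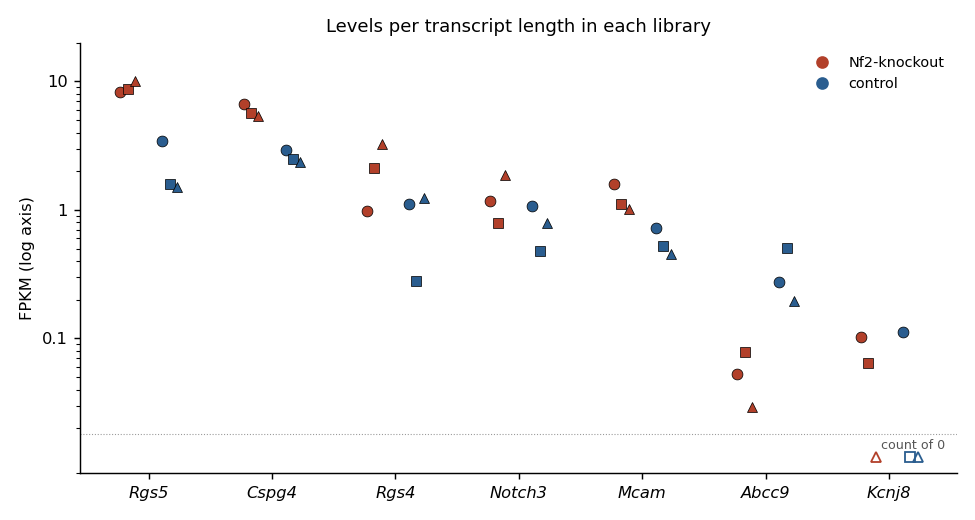
FPKM of each detected pericyte marker gene in each library on a log axis, Nf2-knockout to the left of control for each gene (symbols mark replicates as in the plot of CPM, and open symbols at the bottom are libraries with a count of 0). Rgs5 and Cspg4 stood above the other members in both groups, and for Abcc9 all Nf2-knockout libraries lay below all controls.

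Together Rgs5 and Cspg4 made up between 71.4% and 79.2% of the summed FPKM of the members in Nf2-knockout libraries and between 59.2% and 69.5% in controls. The sum was 18.8, 18.7 and 21.5 FPKM in Nf2-knockout replicates 1 to 3, against 9.64, 5.87 and 6.56 FPKM in control replicates 1 to 3. By mean FPKM Rgs5 stood at the 74.2 percentile of genes tested in Nf2-knockout and at the 46.9 percentile in control libraries, Cspg4 at the 66.0 and 50.4, and Abcc9 at the 3.54 and 19.3. Within the controls, replicate 1 was the highest library for 5 of the 7 detected members (Rgs5, Cspg4, Mcam, Notch3 and Kcnj8). Within Nf2-knockout libraries, replicate 1 was highest for Cspg4, Mcam and Kcnj8 and replicate 3 for Rgs5, Rgs4 and Notch3, so the members did not follow 1 library.

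Other genes of mural cells changed in both directions. Of 26 further pericyte markers 23 were tested, of which 1 rose and 2 fell (13% against 9.29% of all genes, median log2 fold change −0.07). They summed to between 500 and 566 CPM in Nf2-knockout and between 694 and 755 CPM in control libraries. Pdgfrb, the receptor through which endothelial PDGF-B recruits pericytes, had 178, 185 and 223 CPM in Nf2-knockout replicates 1 to 3, against 204, 229 and 208 CPM in control replicates 1 to 3. It did not pass (log2 fold change −0.13, SE 0.109, adjusted p = 0.538), and its groups overlapped. Anpep, the surface aminopeptidase CD13, fell to 51.6 ± 6.75 CPM in Nf2-knockout, against 134 ± 8.59 CPM in control libraries (−1.38, adjusted p = 0.00317, kept in 6 of 6 fits). Enpep, aminopeptidase A, had 37.8, 58.7 and 35.2 CPM in Nf2-knockout replicates 1 to 3, against 101, 104 and 96.0 CPM in control replicates 1 to 3, and fell (−1.19, adjusted p = 0.0138, 4 of 6 fits). Trpc6, a cation channel, rose to 1.97 ± 0.624 CPM, against 0.52 ± 0.205 CPM in controls (1.92, adjusted p = 0.0376, 0 of 6 fits). In the fits that left out a library, 0 of the list rose and between 1 and 2 fell. Of the 26 genes, 10 averaged below 1 CPM in both groups, among them Vtn, Atp13a5 and Slc38a11, the last with no count. Ndufa4l2, another marker of brain pericytes, averaged 37.6 ± 28.1 CPM in Nf2-knockout libraries, against 45.8 ± 26.3 CPM in controls (adjusted p = 0.863).

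Of 18 contractile mural genes 17 were tested, and 1 rose and 3 fell (23.5% against 9.29% of all genes, median 0.23). Acta2, the smooth muscle actin, had 273, 262 and 529 CPM in Nf2-knockout replicates 1 to 3, against 153, 131 and 133 CPM in control replicates 1 to 3, and rose (1.35, SE 0.272, adjusted p = 0.0264, 3 of 6 fits). Mylk, the kinase of myosin light chain, fell to 110 ± 27.5 CPM, against 233 ± 32.9 CPM in controls (−1.08, 3 of 6 fits), as did Synpo2 (−1.13, 4 of 6 fits) and the intermediate filament gene Synm (−0.68, 2 of 6 fits). Myh11, the smooth muscle myosin that marks the mature contractile cell, averaged 1.57 ± 1.17 CPM in Nf2-knockout libraries, against 1.98 ± 1.97 CPM in controls (adjusted p = 0.852). Leaving out Nf2-knockout replicate 1 gave 1 rise and 0 falls, leaving out control replicate 1 gave 0 rises and 2 falls, leaving out control replicate 2 gave 0 of either, and leaving out control replicate 3 gave 0 rises and 3 falls.

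No other tested RGS gene rose. Of 18 other RGS genes 14 were tested, 0 rose and 2 fell (14.3% against 9.29%, median −0.61), with the same number in each fit that left out 1 library. Rgs3 fell to 62.5 ± 7.91 CPM, against 138 ± 12.5 CPM in controls (−1.14, adjusted p = 0.00431), and Rgs10 to 14.5 ± 1.73 CPM, against 34.9 ± 1.37 CPM (−1.27, adjusted p = 0.00359). Rgs2, the other abundant member, averaged 63.6 ± 17.9 CPM in Nf2-knockout libraries, against 90.3 ± 15.8 CPM in controls and did not pass (adjusted p = 0.203).

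Ligands and partners described for NG2 and CD146 changed in both directions. Of 17 such genes, 3 rose and 3 fell (35.3% against 9.29%, median 0.12), with 1 rise and 2 falls when control replicate 2 was left out, 1 and 3 when Nf2-knockout replicate 3 was and 2 and 2 when Nf2-knockout replicate 1 was. Itga3, an integrin subunit that NG2 can engage, rose to 160 ± 32.3 CPM in Nf2-knockout, against 47.0 ± 8.99 CPM in control libraries (1.77, SE 0.195, adjusted p = 0.00464, 6 of 6 fits). Mpdz, a scaffold with PDZ domains that binds NG2, rose (0.65, adjusted p = 0.0189, 4 of 6 fits), as did Msn, which encodes moesin (0.55, adjusted p = 0.0197, 3 of 6 fits). Lama4, the laminin chain of vascular basement membranes that CD146 binds, fell (−0.70, adjusted p = 0.0117, 6 of 6 fits), with Lamb1 (−0.82, 2 of 6 fits) and the plasminogen activator gene Plat (−1.17, 6 of 6 fits).

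Of 17 genes listed for signals between endothelium and mural cells, receptors among them, 1 rose and 5 fell (35.3% against 9.29%, median −0.01). When replicate 1 of either group was left out, or with the replicate block, 1 rose and 2 fell. Pdgfb, the ligand that recruits pericytes, had 0, 0 and 0 counts in Nf2-knockout replicates 1 to 3, against 19, 31 and 23 counts in control replicates 1 to 3 (adjusted p = 0.0241, 1 of 6 fits). A floor of 3 counts over the Nf2-knockout group lay 24.3-fold below the control level of 0.414 CPM. The counting error of that control level is not included. Pdgfa rose to 23.3 ± 0.865 CPM, against 14.6 ± 0.705 CPM in controls (0.67, adjusted p = 0.0113, 6 of 6 fits), and its receptor gene Pdgfra fell to 229 ± 39.7 CPM, against 615 ± 21.5 CPM (−1.42, adjusted p = 0.00332, 6 of 6 fits). Pdgfra is also in the list of fibroblast markers and is counted as a fall in both. Tgfb1 (−0.78, 6 of 6 fits), S1pr1, a receptor for sphingosine 1-phosphate (−1.36, 2 of 6 fits), and Sphk1, a kinase that makes it (−1.21, 1 of 6 fits), fell as well.

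**Figure D4:**
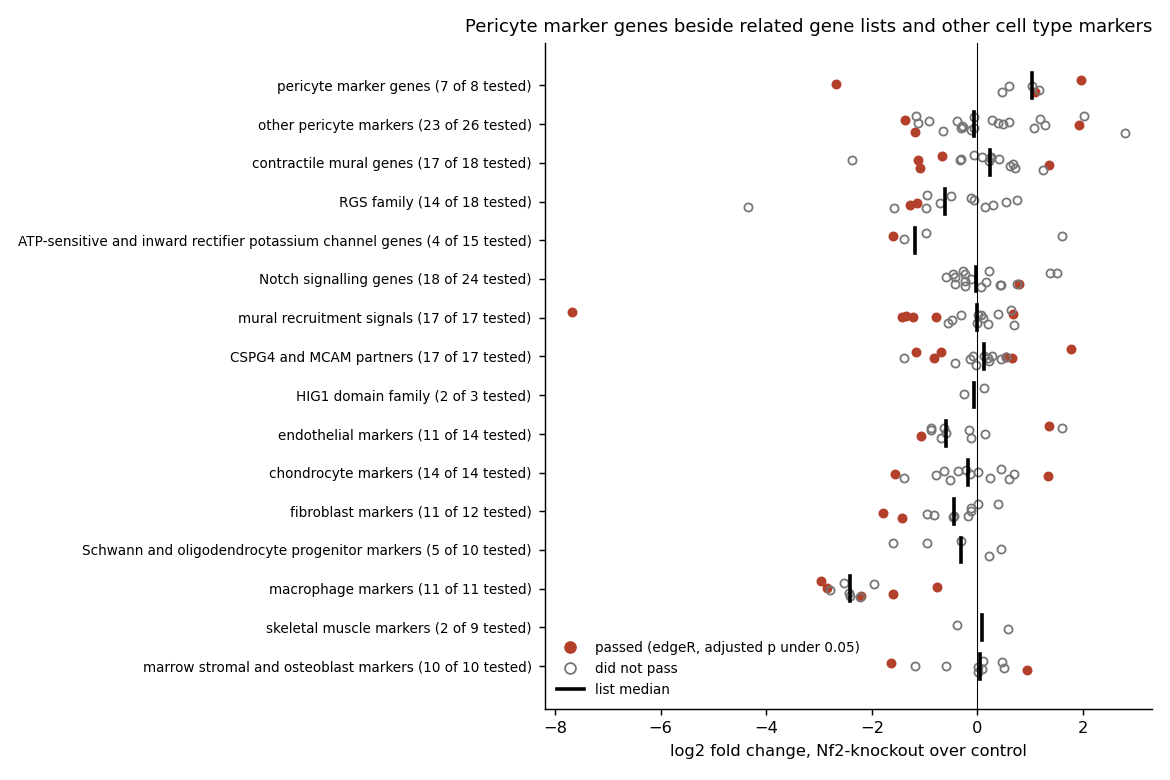
Log2 fold changes (Nf2-knockout over control) of the tested genes of each list, with filled points for genes that passed (edgeR, adjusted p under 0.05) and a bar at the list median. The pericyte marker genes had a median of 1.03, other pericyte markers −0.07, contractile mural genes 0.23 and macrophage markers −2.42, and the point near −8 is Pdgfb, whose fitted value depends on the prior count because Nf2-knockout libraries had no count.

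Markers of other cells that could carry the members were measured beside them. Endothelial markers, a possible source of Mcam, summed to between 23.7 and 31.5 CPM in Nf2-knockout and between 35.8 and 46.1 CPM in control libraries, with 11 of 14 tested, 1 higher (Kdr) and 1 lower (Plvap). Of the 14 genes, 9 averaged below 1 CPM in both groups, among them Pecam1 and Cdh5, the junction proteins that define endothelium. Most of the sum came from Erg, a transcription factor that cartilage also expresses, at 10.4 ± 5.2 CPM in Nf2-knockout libraries, against 19.2 ± 6.03 CPM in controls, and from Plvap and Kdr. Plvap averaged 7.11 ± 0.339 CPM in Nf2-knockout libraries, against 14.9 ± 1.73 CPM in controls, and Kdr 4.49 ± 0.766 CPM, against 1.75 ± 0.286 CPM. When Nf2-knockout replicate 1, Nf2-knockout replicate 3, control replicate 1 or control replicate 2 was left out, 0 rose and 1 fell. Schwann cell and oligodendrocyte progenitor markers, possible sources of Cspg4, summed to between 109 and 190 CPM and between 95.6 and 133 CPM, nearly all of it S100b, which chondrocytes express too. Sox10 averaged 0.02 CPM in Nf2-knockout libraries, against 0 CPM in controls, and Olig1 and Olig2 had no count. Skeletal muscle markers summed to between 6.62 and 18.1 CPM in Nf2-knockout and between 9.4 and 24.1 CPM in control libraries, with Myod1 and Myf5 at no count. Most of it was Des, which is also in the list of further pericyte markers. Des averaged 11.9 ± 5.89 CPM in Nf2-knockout libraries, against 15.6 ± 7.03 CPM in controls. Of the Schwann cell and progenitor markers edgeR called 0 of 5 tested and DESeq2 0 of 8 with a count. Of the muscle markers edgeR called 0 of 2 tested and DESeq2 0 of 6 with a count. DESeq2 gave an adjusted p to 20235 of the 27103 genes with a count, so genes with few counts may lack one. At an unadjusted p under 0.05 edgeR had 1 and 0 of them, and 24.8% of all genes. The HIG1 family had 0 of 2 called by either tool and 1 at an unadjusted p under 0.05.

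All 11 macrophage markers were tested, and 0 rose and 5 fell (45.5% against 9.29%, median −2.42). They summed to between 42.5 and 104 CPM in Nf2-knockout and between 152 and 413 CPM in control libraries, with no marker at 0 in all libraries. With DESeq2 9 fell, and with the replicate block 2. The number that fell was 3 when control replicate 1 was left out, 1 when Nf2-knockout replicate 2 was, and 0 when any of the others was. Markers of marrow stroma and osteoblasts had 1 rise and 1 fall of 10 (20%, median 0.05), summing to between 11759.7 and 13980.1 CPM and between 12577.5 and 14752.6 CPM in Nf2-knockout and control libraries. Most of this sum was Spp1, at 9750.9 ± 1266.2 CPM in Nf2-knockout libraries, against 9714.6 ± 1468.2 CPM in controls. Much of the rest was Col1a1, which is also in the list of fibroblast markers. Lepr, the leptin receptor of perivascular marrow stroma, rose (0.94, adjusted p = 0.0462, 1 of 6 fits) and Cxcl12, the chemokine of these cells, fell to 278 ± 93.6 CPM, against 867 ± 105 CPM in controls (−1.64, adjusted p = 0.0108, 6 of 6 fits). When Nf2-knockout replicate 1, Nf2-knockout replicate 3, control replicate 1 or control replicate 3 was left out, 0 rose and 1 fell, and when control replicate 2 was, 0 rose and 2 fell. Fibroblast markers had 0 rises and 2 falls of 11 tested (18.2%, median −0.44), Pdgfra and Lum, with 5 falls in DESeq2 and 1 fall without Nf2-knockout replicate 1 or any 1 control. Chondrocyte markers had 1 rise (Col2a1) and 1 fall (Col9a2) of 14 (14.3%, median −0.18). Leaving out Nf2-knockout replicate 1 or any 1 control left 0 that passed, leaving out Nf2-knockout replicate 2 gave 0 rises and 1 fall, and leaving out Nf2-knockout replicate 3 gave 2 rises and 0 falls. With the replicate block 0 passed. The part of these cell types in the changes of Rgs5, Cspg4 and Abcc9 was not tested.

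Genes around the members changed about as often as genes in general. With start coordinates within 300 kb of a member's lay 75 other tested genes, of which 6 were higher and 2 lower (10.7% against 9.29% of all genes). Next to Rgs5, Nuf2, a kinetochore gene, rose to 16.8 ± 2.26 CPM, against 9.72 ± 0.63 CPM in controls (0.79, adjusted p = 0.0195). On the side of Rgs4, Hsd17b7 did not pass (0.04, adjusted p = 0.886). Ddr2, in the window of Rgs4 but not of Rgs5, rose to 405 ± 31.7 CPM, against 289 ± 24.6 CPM in controls (0.48, adjusted p = 0.0296). Near Abcc9 and Kcnj8, Ldhb, a lactate dehydrogenase subunit, fell to 615 ± 219 CPM, against 1610.3 ± 331 CPM in controls (−1.39, adjusted p = 0.024). Cmas, the nearest tested gene on the other side of Abcc9, did not pass (0.13, adjusted p = 0.608).

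**Figure D5:**
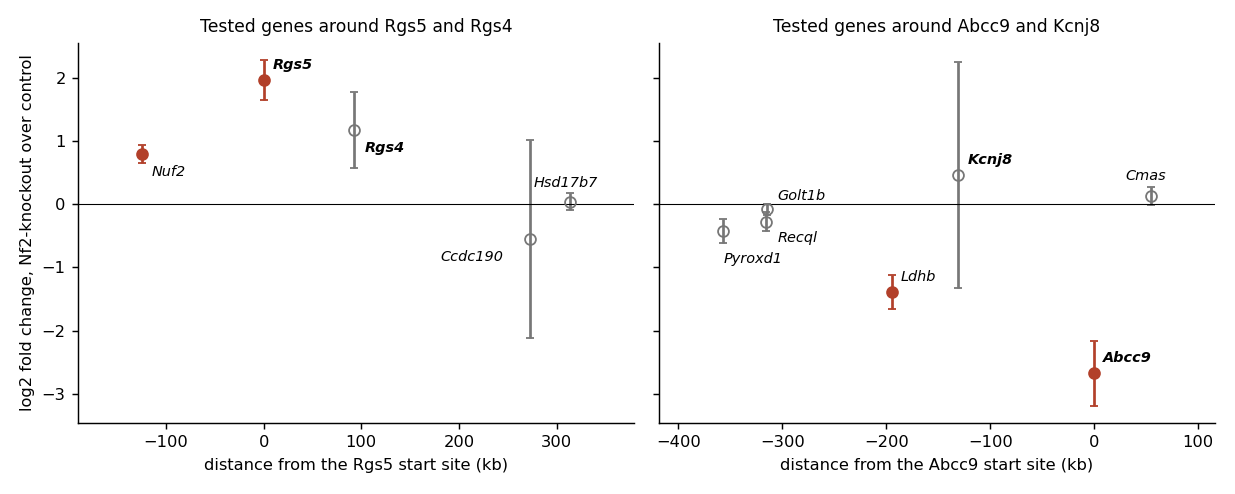
Log2 fold changes with SE of tested genes whose start coordinates lie within 300 kb of that of Rgs5 (left) or Abcc9 (right), against the distance between start sites in kb, positive towards higher coordinates, with filled points for genes that passed. Rgs5 and Nuf2 were higher and Abcc9 and Ldhb lower, and Rgs4 and Kcnj8, the neighbouring members, did not pass.

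Over the 6 libraries the genes most like Cspg4 in log2 CPM were Serpinb6b (Pearson r 0.997), Fam20a (0.996) and Kcnk7 (0.995). Those most like Rgs5 were 4833415N18Rik (0.999), Evpl (0.998) and Nap1l1 (0.996), and those most like Abcc9 were Alms1 (0.999), Mpped2 (0.997) and Ppp1cc (0.993). Each is the top of all genes tested over 6 libraries that fall into 2 groups, so the values describe likeness only. Serpinb6b (log2 fold change 2.26), Fam20a (1.04) and Nap1l1 (0.50) rose, and Mpped2 (−1.52) and Ppp1cc (−0.36) fell. Kcnk7 rose too, with 0.589 CPM in Nf2-knockout libraries, against 0.0112 CPM in controls, while 4833415N18Rik, Evpl and Alms1 did not pass.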

How the data were processed

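Gene-level RNA-seq of 3 Nf2-knockout and 3 control libraries was used, grouped and numbered by their titles. The deposited table gives counts and FPKM for 55401 genes. Per the submitters' processing notes, cutadapt 1.9, HISAT2 2.0.4, StringTie 1.3.4d and edgeR were used, with no roles given. The deposited counts are whole numbers with differing totals and may be rounded coverage estimates. The authors' FPKM are scaled for length and depth, and a count of 0 is listed as 0.0001. Positions equalled GENCODE M21 (GRCm38) for 94.2% of 55141 genes and for all 8 members. Where genes shared a symbol, the lowest identifier kept it. Replicates differed beyond sampling noise in each group.

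Counts were tested with edgeR 4.0.16 in R 4.3.3 (filterByExpr, TMM, glmQLFit and glmQLFTest on group, two-sided, Benjamini-Hochberg over 18218 genes, threshold 0.05). CPM is TMM-scaled. SEs were derived from each log2 fold change and its F statistic, with a prior count of 0.125. Functions were tested on simulated data. Intervals and floors cover counting error only. Members and lists (16 with the members' own) were chosen with earlier results of these data known. Genes were named from the members and, in each list, up to 3 with the smallest p and 2 with the highest FPKM. Tested neighbours within 300 kb and the 3 most like each tested member were also drawn on. Not all of these are named. Neighbours are given only around Rgs5, Rgs4, Abcc9 and Kcnj8, the most alike genes only for the 3 members that passed, and no macrophage gene. Other genes that passed in a list, and Pecam1, Cdh5, Sox10, Olig1, Olig2, Myod1, Myf5, Myh11, Vtn, Atp13a5 and Slc38a11, were chosen after their values were seen, as was the level of 1 CPM below which list genes were counted as low. Alternatives were DESeq2 1.42.0, its size factors, no filter, a replicate block, limma 3.58.1 on log2(FPKM + 0.1) or log2(FPKM + 1), with genes at 0.1 FPKM or more in 3 libraries or without that filter, and each library left out.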

Additional observations from a re-analysis of the deposited data

How the results depend on the processing

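The number of pericyte marker genes that passed was 3 in the reported fit, 4 with DESeq2 and 2 to 3 with 1 library left out, and Rgs5 and Cspg4 passed under each alternative run. Abcc9 kept its direction in each and lost its call in limma on FPKM (−1.42, −0.33 with a pseudocount of 1) and in 4 of 6 fits without 1 library. Kcnj8 changed sign when Nf2-knockout replicate 1 (−0.24), control replicate 2 (−0.10) or control replicate 3 (−0.10) was left out, within a range of −0.24 to 6.23. Kcnj8 had counts only in Nf2-knockout replicates 1 and 2 and in control replicate 1, and the cause of these sign changes was not tested. Over all genes, 1693 passed, against 2593 with DESeq2, 923 under the replicate block, 1065 by limma without a filter on FPKM and 629 to 1186 with 1 library left out (629 and 744 when Nf2-knockout replicate 1 or 3 was left out, 705 and 973 when control replicate 2 or 1 was). Rises and falls numbered 749 and 944 on counts and 1042 and 622 in limma on log2(FPKM + 0.1), where the median of all genes was 0.09. Libraries with the same replicate number did not deviate together (r −0.09, 0.03 and 0.023 for numbers 1 to 3). These values cannot show whether such libraries share an animal or a batch, which no source used here gives. The replicate block left 3 members called. Of the other lists, those whose number called moved by over 1.5 times with DESeq2 were fibroblast markers (5 lower, against 2), macrophage markers (9 lower, against 5) and potassium channel genes (2 called, against 1). Under the replicate block they were recruitment signals (3 called, against 6), macrophage markers (2, against 5), chondrocyte markers (0, against 2) and marrow stromal and osteoblast markers (1, against 2). The last 2 lists had the same 0 and 1 in edgeR with no filter and in each limma fit. Macrophage markers had 2 called in limma on log2(FPKM + 1) and 0 in limma without a filter, which also called 1 contractile, 1 endothelial, 1 fibroblast, 0 Notch and 0 potassium channel genes. Kcnj8 had at most 20 counts in a library and Higd1b none.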
